A study of Mus musculus with 8 samples.

Results

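The 4 heat shock genes Hsp90aa1, Hsp90ab1, Hsp90b1 and Hspb1 were chosen by gene symbol from the 1802 genes that the authors' deposited table lists for mouse retina. They were measured by droplet single-cell RNA sequencing of dissociated retinal tissue, in 3 libraries of genotype Control, titled WT, and 5 libraries of genotype ABCA1KO, titled KO. ABCA1 is a membrane transporter that moves cholesterol and phospholipid out of cells, and the series title concerns astrocytes and optic neuropathy. The labels give neither age, sex, strain or treatment nor the allele, the cells in which the gene was deleted and whether each library came from its own animal.

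HSP90 proteins are ATP-driven dimeric chaperones that hold kinases, steroid receptors and other client proteins in a state from which they can be activated. Hsp90aa1 encodes the cytosolic alpha form, whose transcription is raised strongly by heat and other protein-damaging stress, Hsp90ab1 the cytosolic beta form that cells make constitutively, and Hsp90b1 the endoplasmic reticulum form, also called GRP94 or endoplasmin. Hspb1 encodes a small heat shock protein, HSP25 in mouse, which binds unfolding proteins without using ATP and is often seen in stressed glia and neurons. Cytosolic heat shock genes are activated by heat shock factor 1, and those of the endoplasmic reticulum by the unfolded protein response.

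The 4 genes lie on separate chromosomes of GRCm38, with positions from the GENCODE annotation. Hsp90aa1 (ENSMUSG00000021270.13) lies on the minus strand at chr12:110690605-110702728, and its principal transcript has 11 exons, 2202 coding bases and a 3′ untranslated region of 512 bases. Hsp90ab1 (ENSMUSG00000023944.14) lies on the minus strand at chr17:45567775-45573271 and has 11 exons, 2175 coding bases and a 3′ untranslated region of 240 bases. Hsp90b1 (ENSMUSG00000020048.13) lies on the minus strand at chr10:86690209-86705509 and has 18 exons, 2409 coding bases and a 3′ untranslated region of 262 bases. Hspb1 (ENSMUSG00000004951.10) lies on the plus strand at chr5:135887919-135889563 and is the smallest, with 3 exons, 630 coding bases and a 3′ untranslated region of 133 bases.

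The 3 HSP90 genes differ at the end of their coding sequence, where a signal for the protein's partners or its place in the cell is encoded. The last 60 coding bases are shown from the GENCODE transcripts, and capitals mark the final codons with the stop codon.

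Hsp90aa1: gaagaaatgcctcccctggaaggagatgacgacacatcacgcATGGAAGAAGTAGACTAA

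Hsp90ab1: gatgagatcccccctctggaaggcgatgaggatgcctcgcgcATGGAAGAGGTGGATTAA

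Hsp90b1: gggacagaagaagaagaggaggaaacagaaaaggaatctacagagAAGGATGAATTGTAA

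In both cytosolic genes the capitals hold 5 codons for the same residues, the C-terminal motif to which co-chaperones with tetratricopeptide repeats bind, written with 3 differing bases. In Hsp90b1 they hold 4 codons, which encode the signal that retrieves soluble proteins to the endoplasmic reticulum. Over the 60 bases, Hsp90ab1 differed from Hsp90aa1 at 14 positions. Over the whole coding sequence 76.8% of 2173 aligned bases were identical between Hsp90aa1 and Hsp90ab1, against 66% between Hsp90aa1 and Hsp90b1.

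Sequencing from the 3′ end bears on whether such related genes can be told apart. In the last 300 bases of their transcripts, Hsp90aa1 and Hsp90ab1 shared no exact run longer than 7 bases. Elsewhere in the annotated transcripts, 3 pseudogenes matched Hsp90aa1 over at least 500 bases at 90% identity or more, 1 matched Hsp90ab1, 1 matched Hspb1 and 0 matched Hsp90b1. None of those 5 matches reached the final 50 bases of its gene's transcript. A match that stops short of them could still cover bases read from the 3′ end, which was not checked. Shorter separate stretches of the same pseudogenes were not counted, so whether any of these reaches the final bases is not known. How the authors counted reads that fit several places is not given in the sources used here.

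Promoter sequences from the RefSeq table (GRCm38.p6) were found for Hspb1 and Hsp90b1. The 250 bases before the start were searched on both strands for a heat shock element of 2 units, written GAANNTTC or TTCNNGAA, and for the endoplasmic reticulum stress element, CCAAT and CCACG with 9 bases between them. They are shown because these are the motifs of the factors that drive the cytosolic and the endoplasmic reticulum response. Hspa1b, an inducible HSP70 gene, and Hspa5, the main HSP70 of the endoplasmic reticulum, stand beside them, and Calr encodes the lectin chaperone calreticulin. The stretches lie at chr5:135887782-135887849 (plus strand) for Hspb1, chr17:34959315-34959362 (minus strand) for Hspa1b, chr10:86705513-86705676 (minus strand) for Hsp90b1, chr2:34772020-34772048 (plus strand) for Hspa5 and chr8:84847070-84847098 (minus strand) for Calr, and capitals mark the motif matches.

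Hspb1: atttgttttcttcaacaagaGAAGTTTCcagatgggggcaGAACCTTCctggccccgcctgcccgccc

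Hspa1b: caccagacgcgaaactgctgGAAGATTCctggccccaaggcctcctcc

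Hsp90b1: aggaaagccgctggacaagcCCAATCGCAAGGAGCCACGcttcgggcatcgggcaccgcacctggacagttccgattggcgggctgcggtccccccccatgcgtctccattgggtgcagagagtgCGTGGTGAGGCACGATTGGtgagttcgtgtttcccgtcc

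Hspa5: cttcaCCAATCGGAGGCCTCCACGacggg

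Calr: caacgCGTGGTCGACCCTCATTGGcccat

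Hspb1 held 2 heat shock elements, from -117 to -110 and from -97 to -90 relative to the RefSeq start, and Hspa1b held 1, while Hspa4l held 0. Of 32851 promoters in the table, 4218 (12.84%) held at least 1 such element and 478 (1.46%) held 2 or more, so the motif is common. Hsp90b1 held 2 endoplasmic reticulum stress elements, 1 in each orientation, from -212 to -194 and from -107 to -89. That element was in 37 promoters (0.11%), and Hsp90b1 was the only one with more than 1. Hspa5 and Calr held 1 each, and P4hb, the other listed gene of endoplasmic reticulum folding, held 0. The heat shock element of 3 units was in 153 promoters (0.47%) and not in the windows of Hspb1 or Hsp90b1. None of the 5 genes shown held both kinds of element. With the stress element in only 0.11% of promoters, this says little. A match describes the sequence and does not show binding.

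**Figure D1:**
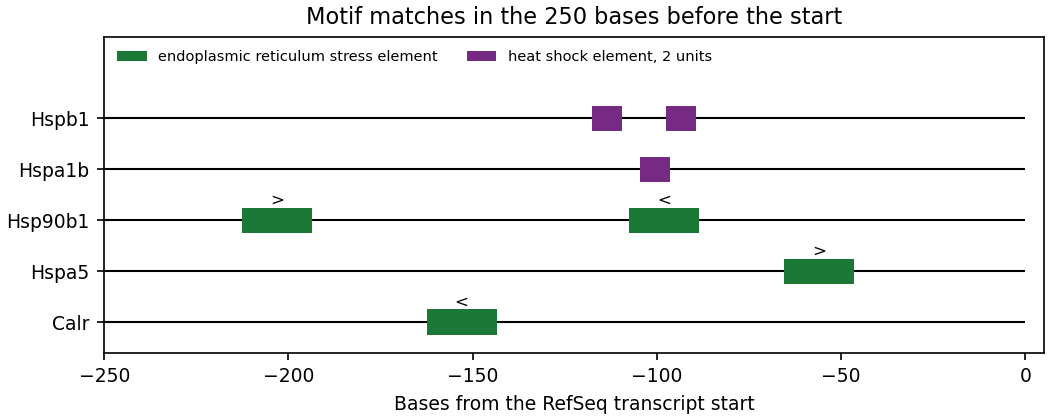
Positions of motif matches in the 250 bases before the RefSeq transcript start of 5 genes (x axis, bases from the start; bars, matches; arrowheads, orientation of the endoplasmic reticulum stress element). Hspb1 carries 2 heat shock elements between -117 and -90, and Hsp90b1 carries 2 stress elements in opposite orientation.

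The measured values came from the authors' deposited table, which compares all cells of the KO libraries with all cells of the WT libraries. Its log difference is KO minus WT on a natural-log scale, apparently of batch-integrated values, and is not a fold change of transcript counts. Beside it stands the share of cells with a value above 0 in each genotype, which for such values is not the detection of a transcript. The table holds no value per library, no error, no number of cells and no sequencing depth, so the variation between libraries is not known for any value. The table lists only genes with a small raw p (at most 0.00938), and the symbols were picked with the values known, so the values are a description and the members' calls support nothing. Fewer cells of a type and less RNA per cell cannot be told apart in values pooled over all retinal cells.

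The targeted gene, Abca1, was not lower in the cells labelled KO, its log difference in the authors' deposited table being 0.0294 (adjusted p = 4.49e-05). Its share of cells above 0 was 30.5% in WT and 48.7% in KO, a gain of 18.2 points against a median gain of 20.8. Neither the deleted sequence nor the cells of deletion are given, and 3′ tags may lie beyond that sequence. These values therefore do not check the genotype, and KO below means the libraries labelled KO.

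The heat shock genes did not move as 1 group, since the inducible cytosolic HSP90 was lower in KO and the other 3 genes were higher. In the authors' deposited table the log difference was -0.0649 for Hsp90aa1, 0.101 for Hsp90ab1, 0.0427 for Hsp90b1 and 0.105 for Hspb1. All 4 passed an adjusted p under 0.05 in the authors' deposited table, as did 93.2% of all listed genes, so passing says little about them. Of the listed genes, 69.1% were called higher in KO and 24.1% lower in the authors' deposited table, and the median log difference was 0.0100. Over all cells pooled, Hsp90aa1 was thus on the less common side of the table and its constitutive partner on the more common one. Among the 28 genes with a like share of WT cells above 0, however, 20 were called lower as Hsp90aa1 was, as set out below.

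Hsp90aa1, the stress-inducible cytosolic form, had values above 0 in more cells than any other member in both genotypes. In the authors' deposited table, 79.9% of the WT cells and 87.5% of KO cells were above 0 for Hsp90aa1, a gain of 7.6 percentage points. Its log difference was nevertheless negative, at 34th from the lowest of 1802 genes in the authors' deposited table (adjusted p = 5.69e-09). A negative log difference beside a larger KO share was the usual case, since 423 of the 434 genes called lower had it (97.5%) in the authors' deposited table. Of all 1802 listed genes, 1764 had the larger share in KO, so a gain in share alone sets no member apart.

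Hsp90ab1, the constitutive cytosolic form, was opposite in sign. In the authors' deposited table, 55.3% of the WT cells and 74.3% of KO cells were above 0 for Hsp90ab1, a gain of 19 points that lay below the median gain of 20.8 over all listed genes. Its log difference ranked at 45 from the highest in the authors' deposited table (adjusted p = 4.02e-34). The log differences of the 2 cytosolic forms lay 0.166 apart in the authors' deposited table. The gap between their shares of cells above 0 was 24.6 points in WT and 13.2 points in KO in the authors' deposited table, so the alpha form stayed ahead in both genotypes by this measure. Whether the 2 genes' differences differ beyond the spread between libraries cannot be tested from this table.

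Hsp90b1, the endoplasmic reticulum form, had a log difference between those of the cytosolic forms. In the authors' deposited table, 57.2% of the WT cells and 69.4% of KO cells were above 0 for Hsp90b1, a gain of 12.2 points. Its log difference ranked at 265 from the highest in the authors' deposited table, and its adjusted p of 0.000132 was the largest of the 4.

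Hspb1, the small chaperone, had the highest log difference and the largest gain in share of the 4. In the authors' deposited table, 56% of the WT cells and 80.9% of KO cells were above 0 for Hspb1, a gain of 24.9 points. It ranked at 39 from the highest log difference in the authors' deposited table (adjusted p = 2.05e-186). Its log difference exceeded that of Hsp90ab1 by only 0.00363, and 7 listed genes, these 2 included, lay in that interval in the authors' deposited table. By raw p the pair was far apart, with Hspb1 at 371 and Hsp90ab1 at 1104 from the smallest in the authors' deposited table.

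**Figure D2:**
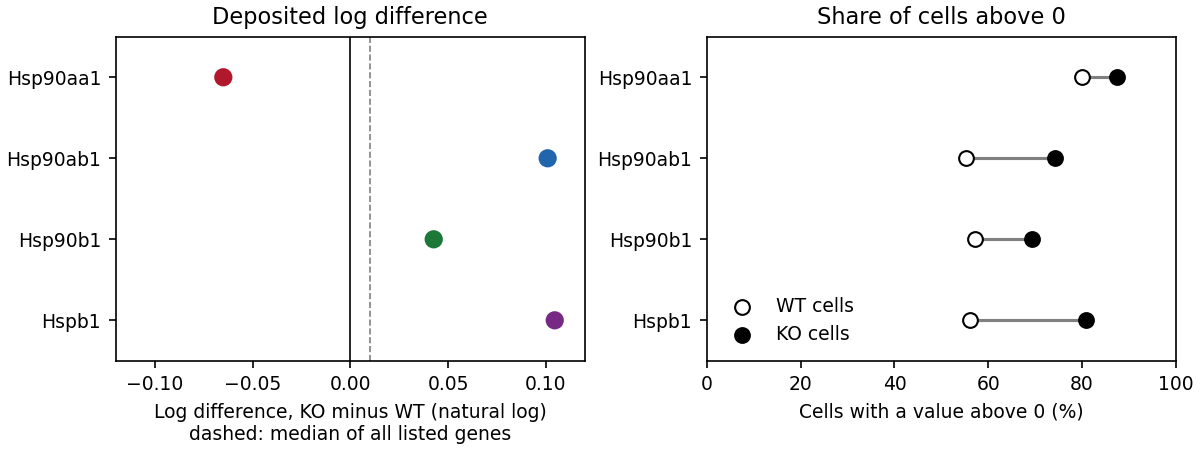
Left, log difference of KO minus WT (x axis, natural log) of the 4 genes, with the median of all listed genes dashed; right, share of cells with a value above 0 (x axis, percent) in WT (open) and KO (filled), all from the authors' deposited table with no error available. Only Hsp90aa1 lies below 0 on the left. All 4 shares are larger in KO on the right, as they were for 1764 of the 1802 listed genes.

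Hspb1, Hsp90ab1 and Hsp90b1 started from nearly the same share in WT and parted in KO. Their WT shares spanned 1.9 points, from 55.3% to 57.2%, and their KO shares spanned 11.5 points in the authors' deposited table. The order in KO was Hspb1, Hsp90ab1 and Hsp90b1, which is also their order by log difference.

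The log difference in this table was not even over the range of WT shares. The median was 0.00660 over 868 genes with a WT share below 40%, 0.0181 over 124 genes from 50% to below 60%, and -0.0559 over 64 genes at 70% or more in the authors' deposited table. Each member was therefore set beside the other listed genes whose WT share lay within 5 percentage points of its own. For Hsp90aa1 the 28 such genes had a median log difference of -0.0453, and the authors' deposited table calls 20 of them lower and 2 higher. Hsp90aa1 lay 0.0197 below that median, with 8 of the 28 genes lower still. Its gain in share of 7.6 points was close to their median of 7.25. Most of the genes listed at such a WT share were thus called lower too, and the value of Hsp90aa1 is not particular to it.

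Hspb1 and Hsp90ab1 lay in the upper part of the genes of like WT share. The 105 genes around Hspb1 had a median log difference of 0.0196 and 11 of them were above it in the authors' deposited table. Of the 114 genes around Hsp90ab1, with a median of 0.0181, 14 were above it in the authors' deposited table. The gain in share separated the pair, because 15 of 105 genes gained more than Hspb1 but 72 of 114 gained more than Hsp90ab1.

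Hsp90b1 combined a middling log difference with a small gain. Among 82 genes of like WT share, with a median log difference of 0.0216, 33 were above it in the authors' deposited table. Its gain of 12.2 points stood against a median of 20.3, and 75 of the 82 genes gained more in the authors' deposited table.

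**Figure D3:**
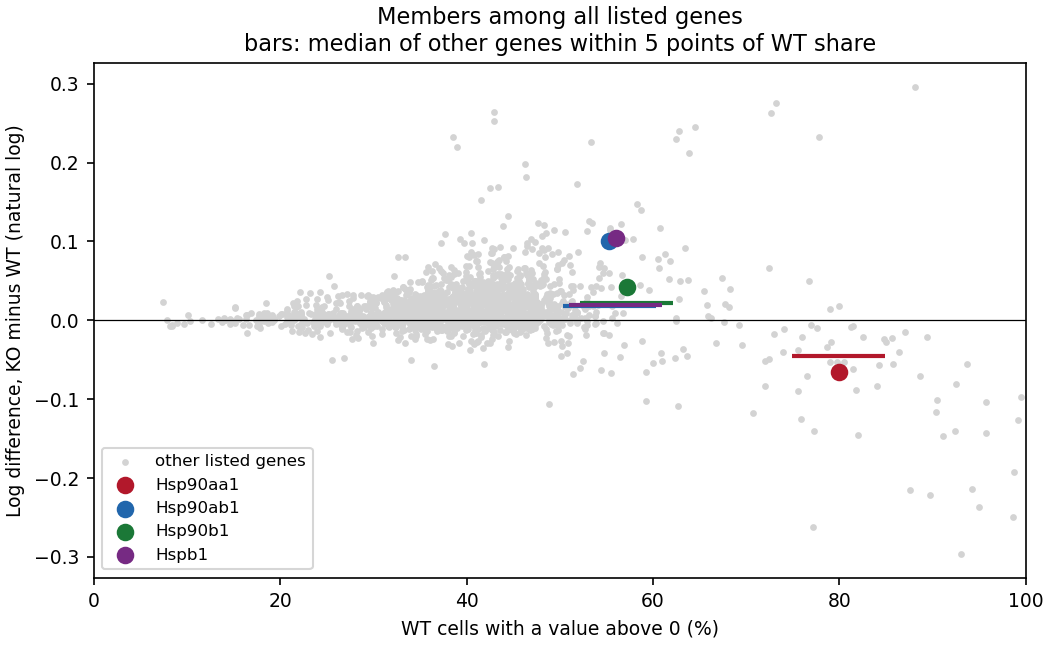
Log difference of KO minus WT (y axis, natural log) against the share of WT cells above 0 (x axis, percent) for the 1802 genes of the authors' deposited table, with the 4 members in colour and horizontal bars at the median of other genes within 5 points of each member's WT share. Most genes with a WT share of 70% or more lie below 0. Hsp90aa1 lies 0.0197 below the median of the other genes within 5 points of its own WT share.

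The genes with the most similar values were found by the distance over the percentile ranks of the log difference and of both shares, that is over 2 pooled groups of cells and not over samples. Closest to Hsp90aa1 were the ribosomal protein genes Rps15a (log difference -0.0612) and Rpl35a (-0.0566) and the retinal gene Rtbdn (-0.0572) in the authors' deposited table. Closest to Hspb1 were Pcp4 (0.115), Gng13 (0.122), a G protein subunit of bipolar cells, and Dapl1 (0.140) in the authors' deposited table. Hsp90ab1 had Tkt (0.113), which encodes transketolase, Ptgds (0.148), a prostaglandin synthase gene, and Gnb3 (0.124), a G protein subunit of cones and bipolar cells, in the authors' deposited table. Hsp90b1 had looser neighbours, Actb (0.0440, not called, adjusted p = 1), Acta2 (0.0428) and Col18a1 (0.0321) in the authors' deposited table.

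Most of the surrounding chaperone system was not in the table, and a gene that is not listed is not shown to be unchanged. Of 141 genes on 8 chaperone lists, the authors' deposited table lists 10, the 4 members and 6 others. It calls 7 of these 10 higher and 3 lower, near the 69.1% higher and 24.1% lower of all listed genes. The median log difference of the 6 others was 0.0194, against 0.0100 over all listed genes. All of them but Dnajc5 had WT shares from 40% to below 60%. There the medians were 0.0182 (40% to below 50%) and 0.0181 (50% to below 60%), so 0.0194 is near the usual value. None of 20 HSP90 co-chaperone genes, 16 chaperonin or prefoldin genes and 31 genes of the constitutive 26S proteasome was listed in the authors' deposited table. Proteasome genes outside that list were present and called higher in the authors' deposited table, as most listed genes were. They were the immunoproteasome genes Psmb8 (0.00155) and Psmb9 (0.00602) and the activator gene Psme1 (0.00856), all named after their values were seen. Each of these values fell short of the 0.0100 of the median gene, so the calls show no particular rise of proteasome genes. Trap1, the mitochondrial HSP90, was not listed either, and Hspb1 was the only 1 of 10 small heat shock genes listed in the authors' deposited table.

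HSP70 proteins hand clients to HSP90. Both listed HSP70 genes were called higher, as were 69.1% of all listed genes. Of 15 HSP70 and HSP110 genes 3 were listed in the authors' deposited table, with log differences of 0.0403 for Hspa5, 0.0191 for the inducible Hspa1b and -0.0269 for Hspa4l, a member of the HSP110 family of exchange factors, which was called lower. For Hspa1b 71.8% of KO and 42.7% of WT cells were above 0 in the authors' deposited table, a gain of 29.1 points that exceeded that of every member. Hspa1b shares 99.6% of 1926 aligned coding bases with Hspa1a, which was not listed, but no exact run over 10 bases in the last 300 bases of the annotated transcripts. Of 43 HSP40 genes, the co-chaperones of HSP70, only Dnajc5, a synaptic vesicle protein gene, was listed, at -0.0143 in the authors' deposited table.

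Of 25 factors and targets of the heat shock factor 1 response, 4 were listed in the authors' deposited table, and 3 of them are the members Hspb1, Hsp90ab1 and Hsp90aa1. Hspa1b was thus the only further one, and like 69.1% of all listed genes it was called higher. Hsp90aa1 and Hspa1b, which are both strongly heat-inducible, had opposite signs in the authors' deposited table (-0.0649 and 0.0191). Their WT shares were 79.9% and 42.7%. At 70% or more, 49 of 64 listed genes were called lower, and from 40% to below 50%, 547 of 711 were called higher. Each sign was thus the more common one at its WT share.

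On the list of endoplasmic reticulum folding, the listed genes were called higher in KO, as were 69.1% of all listed genes. The authors' deposited table lists 4 of 31 such genes and calls all 4 higher, with Hsp90b1 (0.0427) and Hspa5 (0.0403) side by side, ahead of Calr (0.0253) and P4hb (0.0197), a protein disulfide isomerase gene. Without Hsp90b1 the median log difference of the other 3 was 0.0253, against 0.0100 over all listed genes. Their WT shares were 48.5% to 54.4%. Listed genes had a median of 0.0182 at WT shares from 40% to below 50%, and of 0.0181 from 50% to below 60%. Examples from outside the list, named after their values were seen, were Fkbp11 (-0.00677, called lower) and Serpinh1 (0.00614, called higher) in the authors' deposited table. Fkbp11 is a prolyl isomerase gene of that compartment and Serpinh1 a collagen chaperone gene. Other genes of that compartment outside the list were not gathered. Hsp90b1 had the smallest gain in share of the 4, at 12.2 points, against 19.7 for Hspa5, 22.1 for Calr and 26.7 for P4hb in the authors' deposited table.

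**Figure D4:**
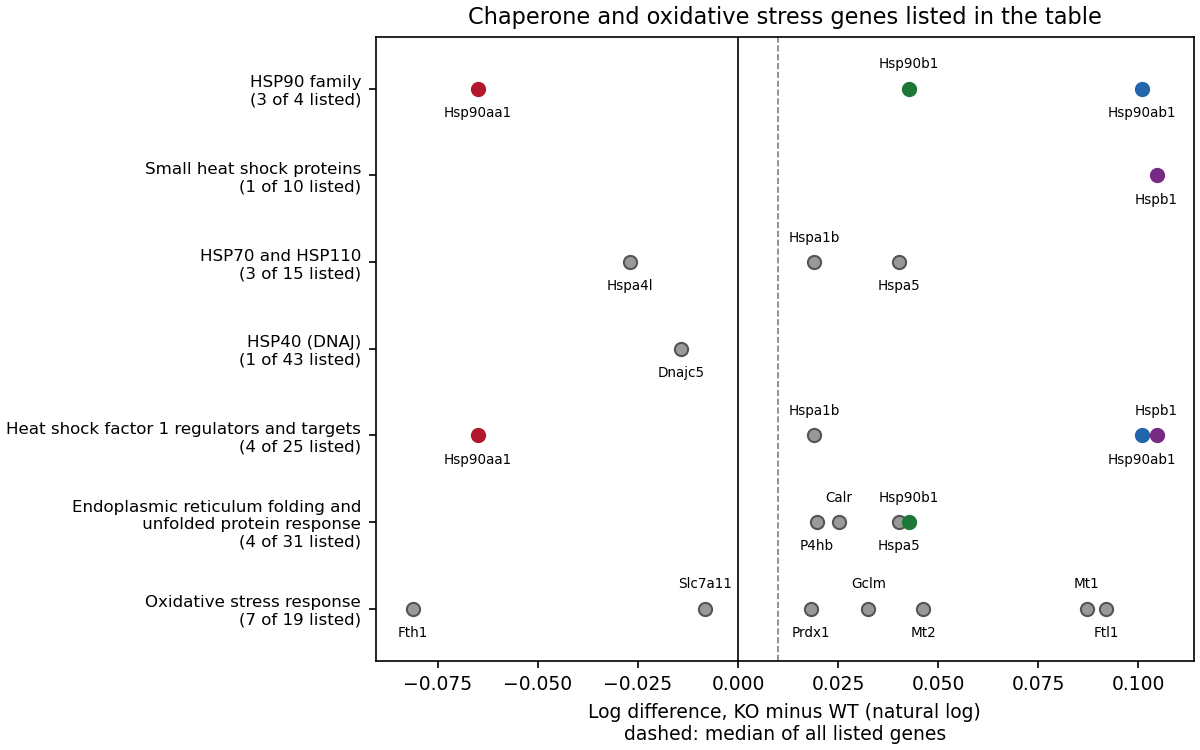
Log difference of KO minus WT (x axis, natural log) of each listed gene on 7 chaperone and oxidative stress lists (rows, with the number listed), from the authors' deposited table, with the median of all listed genes dashed. The 4 genes of endoplasmic reticulum folding lie from 0.0197 to 0.0427, while the list of heat shock factor 1 holds values from -0.0649 to 0.105.

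Genes that respond to enzymatic dissociation were listed more fully than chaperones but with smaller log differences. The authors' deposited table lists 15 of 25 immediate early and dissociation response genes, 12 higher and 3 lower by its calls, with a median of 0.00600 against 0.0100 over all listed genes. They ranged from -0.0191 for Junb to 0.0454 for Fos in the authors' deposited table, so by log difference Hspb1 and Hsp90ab1 lay above all of them and Hsp90aa1 below. By gain in share they ranged from -0.8 points for Klf4 to 29.3 for Fos, with a median of 21.2. The gains of all 4 members, from 7.6 to 24.9 points, lay inside that range. Among oxidative stress genes the authors' deposited table lists 7 of 19, of which 5 were called higher and 2 lower. Both splits are near those of the whole table, 69.1% higher and 24.1% lower. The 2 ferritin chains were split much as the cytosolic HSP90 pair was, with Ftl1 at 0.0921 and Fth1, which had a WT share of 92.5%, at -0.0812 in the authors' deposited table. The part of dissociation in the members' values was not tested.

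Cell type markers moved with the same pooled values, so they stand beside the members. In the authors' deposited table all 11 listed rod markers of 14 were called lower, with log differences from -0.263 to -0.0494 and a median of -0.140. Their WT shares were 72.4% to 99.1% in the authors' deposited table, a range that includes the 79.9% of Hsp90aa1. The median was 0.0940 over 9 listed cone markers, 0.101 over 11 bipolar markers and 0.0797 over 5 amacrine markers in the authors' deposited table, and 3, 5 and 2 of these lay above Hspb1. Müller glia markers, 12 of 14 listed, had a median of 0.0172 in the authors' deposited table, which calls 10 of them higher and 2 lower, with Dbi (0.103) and Vim (0.0801) nearest to Hspb1. All 5 listed astrocyte markers of 8 were called higher, with a median of 0.0128, and the highest, Gja1 (0.0444), was below Hspb1 in the authors' deposited table. Lens crystallins, 7 of 14 listed, lay far above every member, with a median of 0.245. The medians were 0.0272 for horizontal cell, 0.0136 for ganglion cell, 0.00353 for microglia, 0.000901 for endothelial and pericyte and 0.00247 for pigment epithelium markers in the authors' deposited table, and 0 of 6 erythrocyte markers were listed. The part of these cell types in the members' values was not tested, because the table has no value within a cell type.

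**Figure D5:**
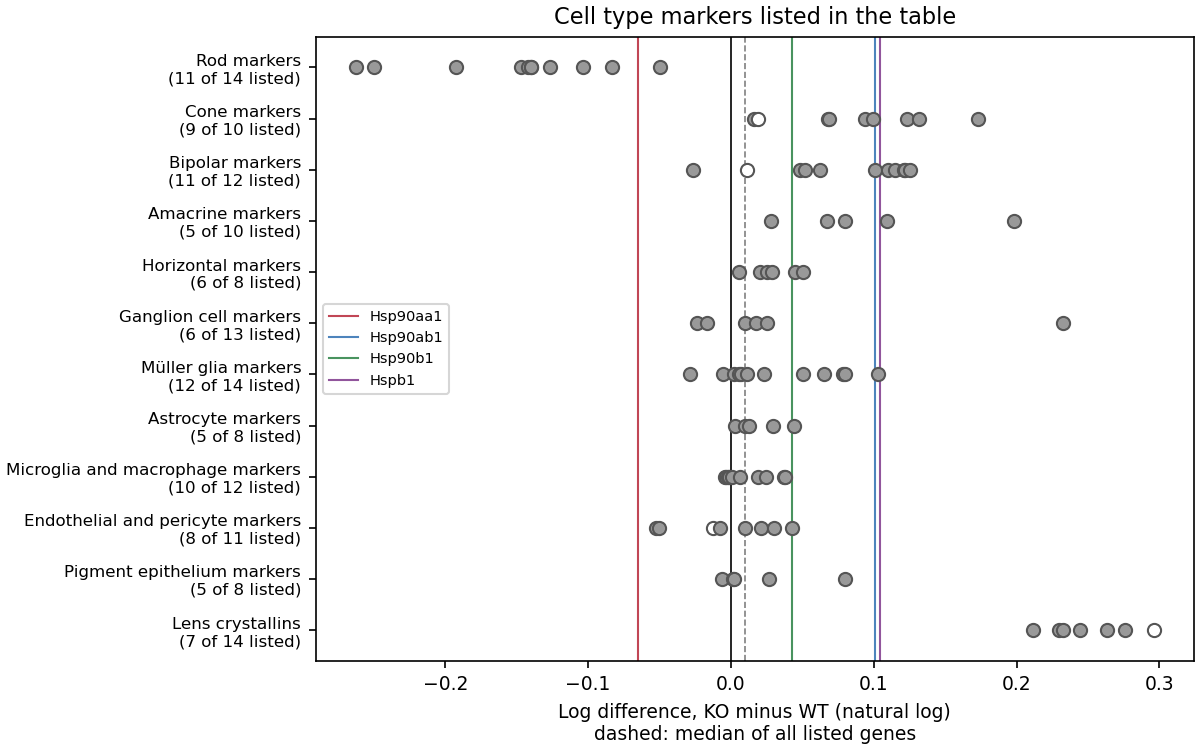
Log difference of KO minus WT (x axis, natural log) of each listed cell type marker (rows, with the number listed; open points were not called), from the authors' deposited table, with coloured lines at the 4 members. Rod markers lie from -0.263 to -0.0494, around the line of Hsp90aa1 and below it, and bipolar, cone and amacrine markers lie on both sides of the lines of Hspb1 and Hsp90ab1.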

How the data were processed

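Retinas were dissociated with papain and libraries were made with a 3′ droplet kit, per the labels' protocols. The submitters' processing notes name the build GRCm38 and list Seurat 3.1.4, Cell Ranger and DESeq2, without saying what each did. For the statistical test, the filters on cells, doublets and integration, details were not given in the sources used here. The deposited log difference was taken to be a natural log, as that Seurat version writes it, since no header names a base. The deposited shares are fractions and are printed as percent. The deposited adjusted p-value was 2000 times the raw p-value wherever the quotient could be formed, so a Bonferroni adjustment over 2000 features was assumed. Those features and the table's title are why the values are called apparently batch-integrated. The first group was taken as KO, since every row names KO as its cluster. If cells were the unit of the authors' test, its p-values do not measure the spread between libraries, and the depth per sample is unknown here.

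The members and all gene lists were chosen with earlier results of these data known. Genes named are the members, listed genes of the chaperone and stress lists, Abca1, the 3 genes nearest to each member and up to 2 called markers per cell type; Trap1 and Hspa1a are named as not listed, and genes named after their values were seen are marked. No test was added. Fits per library were planned and not run, since the table has no values per library. Table functions were tested on simulated data. Positions and coding sequences came from GENCODE M21 (GRCm38) and promoters from RefSeq (GRCm38.p6), which held an entry for 2 of the 4 members. Aligning used Biopython 1.88, and pseudogene matches used BLAST. Alternatives were other centres, thresholds, adjustments, scales and a log2 reading.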

Additional observations from a re-analysis of the deposited data

How the results depend on the processing

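All 4 members kept their direction under each centre. The log base and the scale of the share cannot change a direction, so those alternatives bear only on size. All 4 stayed called at an adjusted p under 0.001. Benjamini-Hochberg adjustment over the same 2000 features cannot give a larger value than the deposited adjusted p, so it could not lose a call. Its adjusted p lay between 5.54e-189 (Hspb1) and 8.27e-08 (Hsp90b1). Taken against the median of genes within 5 points of WT share, the log difference shrank to -0.0197 for Hsp90aa1 and 0.0211 for Hsp90b1, and within 10 points to -0.0259 and 0.0243, so the size of these 2 depends on the centre. Those of Hspb1 (0.085 and 0.0862) and Hsp90ab1 (0.0829 and 0.0827) changed by less than 1.5 times. Requiring an absolute log difference of at least 0.05 left 178 genes higher and 49 lower in the whole table, and 4 higher and 2 lower among the 32 listed chaperone and stress genes, where 24 and 8 were called. Hsp90b1, at 0.0427, does not reach that size and the other 3 members do. Read against the median gene, 827 genes of the whole table were higher and 853 lower, and 14 of the chaperone and stress genes were lower, because values between 0 and the median change sign by construction. No paired analysis was possible because the table has no values per library, and leaving out a replicate could not be run for the same reason. Depth and the spread between libraries are unknown.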
